A study of Mus musculus with 2 samples.

Results

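The genes of 9 neurotrophin and GDNF (glial cell line-derived neurotrophic factor) ligands and receptors were followed through the nuclei of injured mouse spinal cord. They are Bdnf, Ntf3 and Gdnf, which encode ligands, Ntrk2, Ntrk3, Ret and Ngfr, which encode signalling receptors, and Gfra1 and Gfra2, which encode co-receptors. They were chosen by name, with no measured value in the choice, and are 9 of the 32285 features in both count matrices.

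BDNF binds TrkB, the product of Ntrk2, and neurotrophin 3 binds TrkC, the product of Ntrk3. Both receptors are made as full-length tyrosine kinases and as forms that lack the kinase, and in the adult cord the shortened TrkB is known from astrocytes. p75, the product of Ngfr, binds all neurotrophins and their precursors and is known from sensory neurons and from Schwann cells after nerve injury. GDNF binds GFRα1, neurturin binds GFRα2, and these co-receptors bring their ligand to the kinase Ret, which motor neurons and many sensory neurons carry. Both ligand families support motor neurons and have long been studied as treatments of spinal cord injury.

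The samples were 2 single-nucleus RNA sequencing libraries (10x Genomics 3′ chemistry) from the spinal cords of male iNeuroD1GFP mice, a transgenic line named for an inducible NeuroD1 and for GFP. The mice were injured at postnatal day 60, were given tamoxifen (100 mg/kg/day) on days 5 to 8 after it, and were collected on day 10. Each cord was separated into the lesion core and a region that the labels call distal in the title and peri-injury in the protocol. The design names 3 mice, the labels give their age as 8 weeks, and neither says whether the mice were pooled. There was 1 library per region, so no difference between regions has a replicate check, and no test or p-value is given. Both groups carry the transgene and had the injury and tamoxifen, and no uninjured or untreated group was analysed here. The labels do not name the promoter that drives the transgene.

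The core library held 16362 barcodes with 500 to 45528 UMIs (unique transcript molecules), with a median of 1303. The distal library held 7452 barcodes with 500 to 69539 UMIs and a median of 1743. Nuclei were clustered without the 9 genes and named by markers: a class is called neuron-like, astrocyte-like and so on, and these names were rebuilt here and may differ from those of the study. The core library gave 9487 neuron-like nuclei, 71 astrocyte-like, 16 OPC-like (oligodendrocyte progenitor), 15 oligodendrocyte-like, 55 myeloid-like, 112 fibroblast-like and 57 endothelial-like. Another 6439 core barcodes were background-like: their counts varied little around the mean profile of their own cluster. The distal library gave 2040 neuron-like nuclei, 637 astrocyte-like, 371 OPC-like, 1758 oligodendrocyte-like, 356 myeloid-like, 436 fibroblast-like and 89 endothelial-like. A further 1006 distal barcodes were kept apart as mixed. Their clusters had at least 25% of another class's marker level and over 1.5 times the library's median UMIs without background-like barcodes. Shallower clusters with such markers stayed in their class. Oligodendrocyte markers were at 0.456 times their oligodendrocyte-like level in 433 distal astrocyte-like nuclei, 0.373 in OPC-like and 0.342 in 377 fibroblast-like nuclei. They were at 0.314 in the 62 distal nuclei of neuron-like cluster 26. Another 435 barcodes formed a cluster led by haemoglobin and neurofilament genes, and 89 were led by liver genes such as Alb. The libraries shared 38 barcodes, and leaving these out moved none of the member values by more than counting error. In neuron-like nuclei Hoxd11, which is active in the caudal body, had 451 UMIs in the core library and 0 in the distal one, so region and cord level cannot be told apart.

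RNA of neurons was also counted in nuclei of other classes. To show how much, the level of 8 neuron markers in each class is given as a percent of their level in neuron-like nuclei of the same library, as the median over the markers. In the core library this neuron marker level was 75.6% in astrocyte-like, 89.6% in myeloid-like, 71.2% in fibroblast-like, 43.9% in endothelial-like and 103.6% in background-like nuclei. In the distal library it was 14.3% in oligodendrocyte-like, 29.6% in astrocyte-like and in OPC-like, 47.2% in myeloid-like, 29.4% in fibroblast-like and 30.3% in endothelial-like nuclei. The single markers spread around this median: from 25.5% to 40.9% in distal astrocyte-like, 13.2% to 44.3% in OPC-like, 8.97% to 25.6% in oligodendrocyte-like and 18.8% to 48.1% in fibroblast-like nuclei. Intervals on a multiple of the median do not include this spread. The part of such RNA in any level outside neurons was not tested.

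The promoters of Ntrk2 and Gfra1 are shown because these are abundant members with an entry in the RefSeq promoter table used here, and because the mice induce NeuroD1, a factor known to bind the E-box CAGATG. The 250 bases before the RefSeq start are given 5′ to 3′ on the gene's strand in GRCm38.p6, with any CAGATG or its other-strand form CATCTG in capitals. The Ntrk2 window is chr13:58806319-58806568 on the plus strand, and the Gfra1 window is chr19:58455399-58455648 on the minus strand.
Ntrk2: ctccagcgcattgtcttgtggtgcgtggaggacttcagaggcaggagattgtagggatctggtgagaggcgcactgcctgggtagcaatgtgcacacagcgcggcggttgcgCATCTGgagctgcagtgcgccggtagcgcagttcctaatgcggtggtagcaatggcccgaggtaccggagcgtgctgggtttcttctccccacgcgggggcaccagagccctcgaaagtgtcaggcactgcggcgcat
Gfra1: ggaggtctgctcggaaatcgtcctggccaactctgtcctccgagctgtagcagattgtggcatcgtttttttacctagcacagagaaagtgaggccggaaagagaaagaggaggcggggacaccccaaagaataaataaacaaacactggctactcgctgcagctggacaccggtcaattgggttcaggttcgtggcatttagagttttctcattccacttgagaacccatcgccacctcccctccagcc
The Ntrk2 window held 1 match, at 138 bases before the start, and the Gfra1 window held 0. Over all starts in the RefSeq table, 4745 of 32851 windows of the same length, or 14.4%, held a match on either strand. The 6 member genes in that table had 14 starts, of which 3 held a match, 1 each in Ntrk2, Bdnf and Ntf3. These matches are letters in a window, and the data hold no measure of binding.

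The Trk receptor genes gave the most UMIs, 17382 core and 6268 distal for Ntrk2 and 17692 and 6732 for Ntrk3. Levels are not compared between genes here, because nuclear RNA is counted along introns and the spans differ from 18.9 kb for Ngfr to 562 kb for Ntrk3. Ntrk2 (ENSMUSG00000055254) lies at chr13:58806569-59133970 on the plus strand of GRCm38, and Ntrk3 (ENSMUSG00000059146) at chr7:78175959-78738012 on the minus strand. Counts are per gene, so the kinase and the kinase-less forms could not be told apart: GENCODE M21 lists 7 coding transcripts of Ntrk2, for proteins of 466 to 821 residues, and 4 complete ones of Ntrk3, for 612 to 864 residues. Ntrk2 overlaps the opposite-strand genes 4930415C11Rik, with 863 core and 551 distal UMIs, and Gm47423, with 330 and 241, and the sources used here do not state whether strand was used in counting.

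Distal Ntrk2 was highest in neuron-like nuclei and next in OPC-like and astrocyte-like nuclei. It stood at 532 (514 to 551) CPM in neurons, where CPM is the gene's UMIs scaled to a common class total and the range is the exact Poisson 95% interval. The level was 372 (330 to 418) CPM in OPC-like, 304 (275 to 335) in astrocyte-like, 261 (214 to 315) in myeloid-like and 155 (124 to 192) in fibroblast-like nuclei. It was lowest in endothelial-like nuclei at 99.3 (51.3 to 173) CPM and oligodendrocyte-like nuclei at 68.1 (59.8 to 77.1) CPM. Intervals here cover counting error within a library, not differences between mice. Neurons were above OPC-like nuclei by a ratio of 1.43 (1.27 to 1.62), although a finer clustering (resolution 2.0) gave 1.12 (0.973 to 1.30), and OPC-like above astrocyte-like nuclei by 1.23 (1.05 to 1.43). Astrocyte-like and myeloid-like nuclei did not differ beyond counting error, at 1.17 (0.941 to 1.45).

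Against the neuron marker level, Ntrk2 was high in 2 of these classes. In OPC-like nuclei it was 2.36 (2.09 to 2.66) times that mark and in astrocyte-like nuclei 1.93 (1.75 to 2.13) times. As a percent of the neuron level it was 69.9% and 57.1%, above the highest of the 8 markers in each class, 44.3% and 40.9%. It was at the mark in myeloid-like nuclei, 1.04 (0.853 to 1.25) times, in fibroblast-like nuclei, 0.992 (0.791 to 1.23), and in oligodendrocyte-like nuclei, 0.897 (0.788 to 1.02). A UMI of Ntrk2 was found in 67.1% of neuron-like nuclei (median 2256 UMIs per nucleus), 46.1% of OPC-like (1560), 37.4% of astrocyte-like (1446) and 12.1% of oligodendrocyte-like nuclei (1740). With every nucleus thinned to 1000 UMIs and shallower ones left out, these shares became 40.3%, 31.2%, 24.1% and 7.13%, in the same order.

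Ntrk3 was more evenly spread. Distal neuron-like nuclei had 518 (500 to 537) CPM, OPC-like 506 (457 to 560) and astrocyte-like 463 (427 to 502). Neurons and OPC-like nuclei did not differ beyond counting error, at 1.02 (0.919 to 1.14), nor did OPC-like and astrocyte-like nuclei, at 1.09 (0.959 to 1.24). Next came fibroblast-like nuclei at 378 (328 to 434) CPM, endothelial-like at 265 (181 to 374), myeloid-like at 244 (199 to 296) and oligodendrocyte-like nuclei at 78.6 (69.7 to 88.4). Fibroblast-like nuclei are thus a class where the 2 receptors part: Ntrk3 was 2.49 (2.16 to 2.85) times the neuron marker level there, while Ntrk2 was at it. Ntrk3 was 3.30 (2.98 to 3.65) times that mark in OPC-like and 3.02 (2.79 to 3.27) times in astrocyte-like nuclei. It was at the mark in myeloid-like, 0.999 (0.814 to 1.21), and in oligodendrocyte-like nuclei, 1.07 (0.944 to 1.20). A UMI of Ntrk3 was found in 57.4% of neuron-like, 55.3% of OPC-like, 52.6% of astrocyte-like, 30.3% of fibroblast-like and 14.2% of oligodendrocyte-like nuclei, and thinned in 36.1%, 37.3%, 38.6%, 27.4% and 8.14%.

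**Figure D1:**
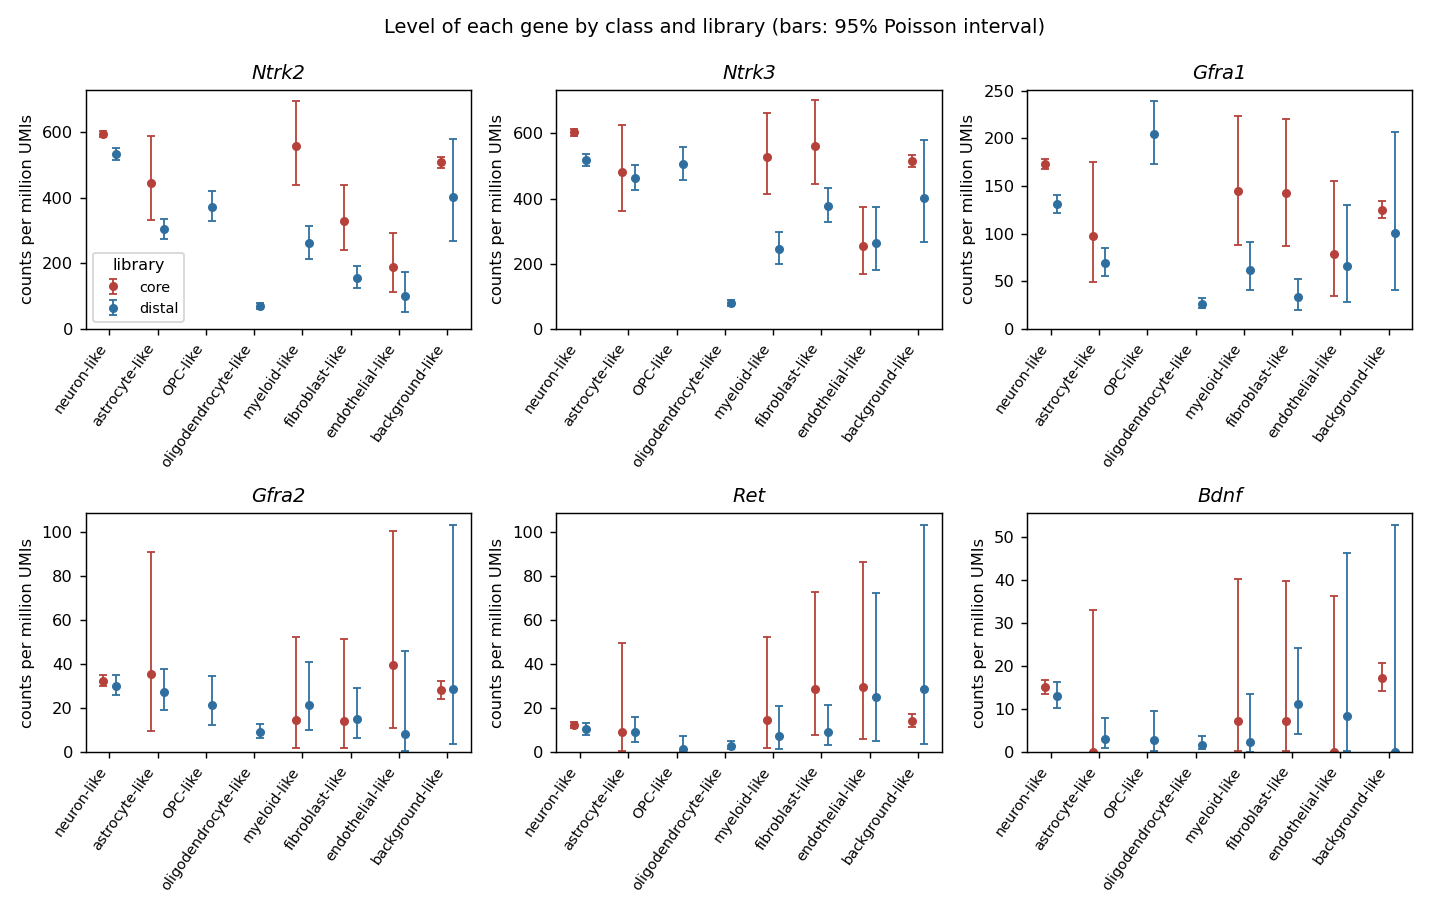
Level of 6 member genes, in CPM on a linear axis, by class (50 or more nuclei) and library; bars are 95% Poisson intervals. Ntrk2 and Ntrk3 are lowest in distal oligodendrocyte-like nuclei, at 68.1 and 78.6 CPM, and Gfra1 is highest in distal OPC-like nuclei, at 205 CPM.

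Gfra1 (ENSMUSG00000025089, chr19:58235604-58455909, minus strand), the co-receptor gene for GDNF, had its highest distal level in OPC-like nuclei and not in neurons. OPC-like nuclei had 205 (174 to 240) CPM and neuron-like nuclei 131 (122 to 141), a ratio of 1.56 (1.30 to 1.86). This rests on 154 UMIs in 106 of 371 OPC-like nuclei, of which no nucleus had more than 4. Across the alternatives run the ratio stayed above 1 and reached 2.12 (1.71 to 2.61) with the finer clustering. OPC-like nuclei were 7.73 (5.94 to 10.1) times the oligodendrocyte-like level of 26.5 (21.4 to 32.4) CPM, or 3.55 (2.91 to 4.31) times with classes given nucleus by nucleus.

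The other distal classes had less Gfra1. Astrocyte-like nuclei had 69.1 (55.7 to 84.9) CPM, endothelial-like 66.2 (28.6 to 130), myeloid-like 62.2 (40.6 to 91.1) and fibroblast-like 33.2 (19.7 to 52.5). Against the neuron marker level Gfra1 was 5.27 (4.47 to 6.17) times as high in OPC-like nuclei and 1.78 (1.43 to 2.19) times in astrocyte-like nuclei. It was at that mark in myeloid-like nuclei, 1.01 (0.656 to 1.47), and in fibroblast-like nuclei, 0.862 (0.511 to 1.36). An unnamed distal cluster of 136 nuclei with markers of both oligodendrocytes and their progenitors (led by Gm13187, 9630013A20Rik and Cnksr3) had 166 (124 to 218) CPM, 5.18 (3.87 to 6.79) times its mark. In that cluster Ntrk2, at 137 CPM, and Ntrk3, at 131 CPM, were at the mark, 1.06 (0.764 to 1.42) and 1.03 (0.742 to 1.40) times. A UMI of Gfra1 was found in 28.6% of OPC-like, 22.4% of neuron-like and 4.66% of oligodendrocyte-like nuclei, and thinned in 19.2%, 11.6% and 2.61%. It was found in 34 of the 136 unnamed nuclei, and thinned in 14.7%.

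Gfra2 (ENSMUSG00000022103, chr14:70890120-70979838, plus strand), the neurturin co-receptor gene, was about as high in distal astrocyte-like as in neuron-like nuclei. Neurons had 30.1 (25.8 to 34.9) CPM and astrocyte-like nuclei 27.3 (19.2 to 37.9) CPM from 36 UMIs, which was 3.08 (2.15 to 4.26) times the neuron marker level. It was also above that level in OPC-like nuclei, at 2.39 (1.37 to 3.88) times, and in oligodendrocyte-like nuclei, at 2.08 (1.42 to 2.94) times. Relative to neurons these 2 classes were at 0.707 (0.396 to 1.18) and 0.297 (0.197 to 0.435). The highest single markers, 44.3% and 25.6% of the neuron level, lie within these intervals. In astrocyte-like nuclei the ratio, 0.910 (0.617 to 1.31), was above the highest marker, 40.9%. OPC-like nuclei had 21.3 (12.2 to 34.5) CPM, of which 4 of 16 UMIs lay in 1 nucleus, and oligodendrocyte-like nuclei 8.92 (6.10 to 12.6). Myeloid-like nuclei at 21.5 (9.84 to 40.9) CPM and fibroblast-like nuclei at 14.8 (6.37 to 29.1) CPM did not differ from OPC-like nuclei beyond counting error.

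Ret (ENSMUSG00000030110, chr6:118151745-118197718, minus strand), the kinase that GFRα1 and GFRα2 use, was rare in every class. It had 10.3 (7.87 to 13.3) CPM in distal neuron-like nuclei and 9.11 (4.71 to 15.9) in astrocyte-like nuclei. In OPC-like nuclei, where Gfra1 was highest, Ret had 1 UMI in 371 nuclei, or 1.33 (0.0337 to 7.41) CPM. Endothelial-like nuclei had 3 distal UMIs, 24.8 (5.12 to 72.5) CPM, and 3 core UMIs, 29.5 (6.09 to 86.2) CPM, both too few to order them.

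Compared with oligodendrocyte-like nuclei, the class lowest in neuron markers, the members with at least 10 CPM in either class were mostly higher elsewhere in the distal library. In neurons 6 of 6 were at least 2 times as high, against 22.5% of all genes compared. In OPC-like nuclei this held for 4 of 4 (all genes, 15.1%), in astrocyte-like for 4 of 4 (18.2%), in myeloid-like for 4 of 4 (27.1%) and in fibroblast-like for 3 of 5 (24%). Neuron markers were also higher in each of these classes than in oligodendrocyte-like nuclei.

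**Figure D2:**
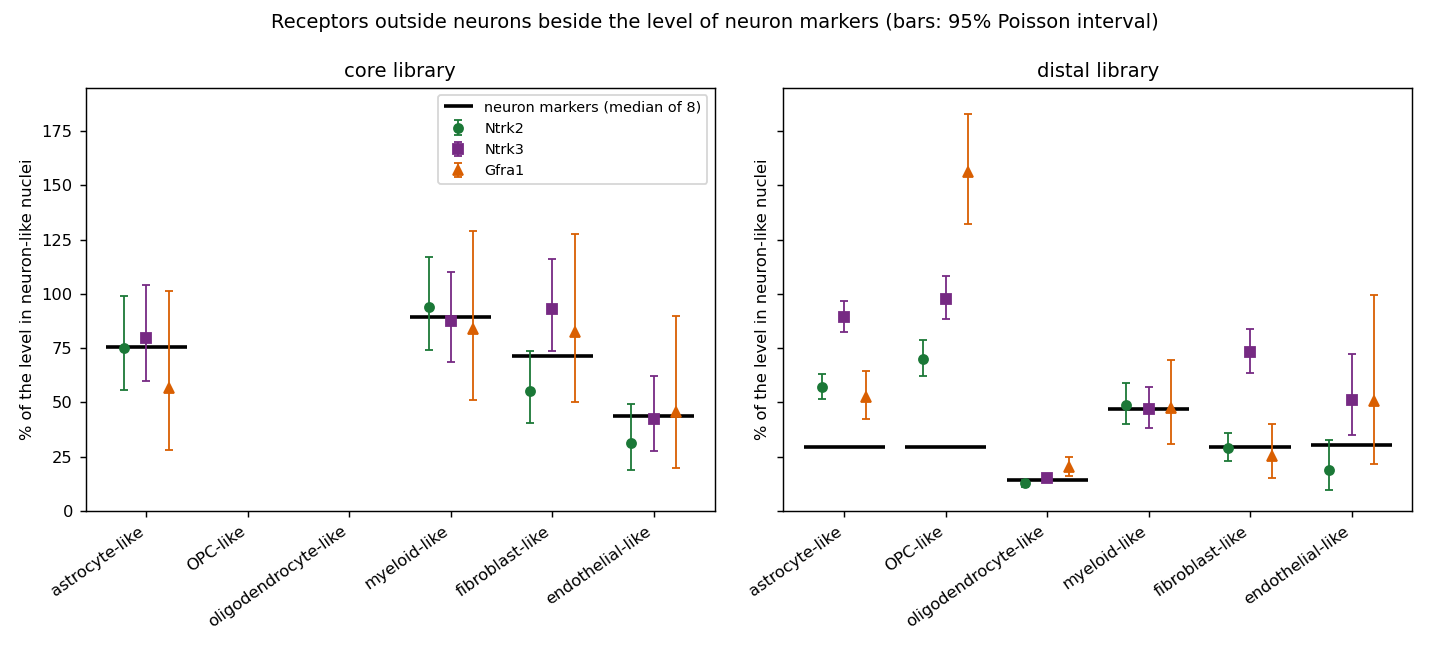
Ntrk2, Ntrk3 and Gfra1 outside neurons, as a percent of their level in neuron-like nuclei of the same library (linear axis; bars are 95% Poisson intervals on the class level), with the median of 8 neuron markers as black lines. In the distal library Gfra1 in OPC-like nuclei, 5.27 times the line, and Ntrk3 in OPC-like, astrocyte-like and fibroblast-like nuclei stand above it, while Ntrk3 in core fibroblast-like nuclei is 1.31 times its line.

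In the core library few glial nuclei were present and the members followed the neuron marker level. Ntrk2 in core astrocyte-like nuclei was 0.992 (0.736 to 1.31) times that mark, Ntrk3 1.05 (0.791 to 1.37) times and Gfra1 0.750 (0.374 to 1.34) times. In core myeloid-like nuclei the same values were 1.05 (0.826 to 1.31), 0.975 (0.765 to 1.23) and 0.934 (0.570 to 1.44). Ntrk3 in core fibroblast-like nuclei, 1.31 (1.04 to 1.63) times, was above the median mark. Its 93.2% of the neuron level compares with 41.7% to 82.0% for the single markers, and against the highest of these the difference is within its counting error. The background-like core barcodes had 507 (490 to 525) CPM of Ntrk2, 515 (498 to 533) of Ntrk3 and 125 (116 to 134) of Gfra1. A UMI of Ntrk2 was found in 66.4% of core neuron-like nuclei and 39.1% of background-like barcodes (median 1909 and 934 UMIs), and thinned in 43.6% and 41.5%.

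Of the ligand genes, Bdnf (ENSMUSG00000048482, chr2:109674700-109727007, plus strand) was the one with enough UMIs to be followed. Core neuron-like nuclei had 348 UMIs, 14.98 (13.45 to 16.64) CPM, and distal neuron-like nuclei 75 UMIs, 12.9 (10.1 to 16.2) CPM. A Bdnf UMI was found in 3.20% and 3.28% of these nuclei. Core background-like barcodes had 17.2 (14.1 to 20.7) CPM. Distal oligodendrocyte-like nuclei had 6 UMIs, 1.67 (0.614 to 3.64) CPM, and astrocyte-like nuclei 4 UMIs, 3.04 (0.828 to 7.78) CPM, both near the neuron marker level. Distal fibroblast-like nuclei had 6 UMIs in 6 nuclei, 11.1 (4.06 to 24.1) CPM, which was 2.93 (1.07 to 6.37) times that level. Relative to distal neuron-like nuclei the ratio was 0.859 (0.306 to 1.96). The highest single marker, 48.1% of the neuron level, lies within that interval.

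Ntf3 and Gdnf were at the edge of detection. Ntf3 (ENSMUSG00000049107, chr6:126101412-126166910, minus strand), which encodes neurotrophin 3, had 44 core and 14 distal UMIs in all. Of these 40 were in core neuron-like nuclei, 1.72 CPM, and 4 in distal neuron-like nuclei, 0.687 CPM. Gdnf (ENSMUSG00000022144, chr15:7810846-7837575, plus strand) had 16 core and 15 distal UMIs. It had 11 UMIs in core neuron-like nuclei, 0.474 CPM, 4 in distal neuron-like nuclei, 0.687 CPM, and 3 in distal fibroblast-like nuclei, 5.54 (1.14 to 16.2) CPM. No UMI of Gdnf was found in myeloid-like nuclei of either library.

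Ngfr (ENSMUSG00000000120, chr11:95568818-95587735, minus strand), the p75 gene, had 9 core and 10 distal UMIs. In the core 8 were in neuron-like nuclei, 0.345 CPM, and 1 in a background-like barcode. In the distal library 5 were in a cluster led by haemoglobin and neurofilament genes, 2 in fibroblast-like nuclei, 2 in mixed barcodes and 1 in neuron-like nuclei. Oligodendrocyte-like and astrocyte-like nuclei had 0 distal UMIs, which allows up to 0.837 CPM and 2.28 CPM (3 counts of the class total).

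Among neurons Gfra1 was the member with the highest ratio of its top cluster to its median cluster. Over the 13 core neuron clusters with at least 50 nuclei it ranged from 55 (31.4 to 89.3) CPM in cluster 21 to 498 (450 to 551) CPM in cluster 7, and over the 11 distal ones from 27.5 (10.1 to 59.9) CPM in cluster 16 to 485 (387 to 600) CPM in cluster 23. Its highest cluster was 5.00 times the median cluster in the core and 6.81 times in the distal library. It was the only one of the 6 more abundant members to reach 5 times in either library, against 2.57% of genes in the core and 3.74% in the distal library.

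Clusters 7 and 23 were high in both libraries. With clusters 12 and 14 they carried more of Slc17a6, the vesicular glutamate transporter gene of excitatory neurons, than of any single inhibitory gene. Inhibitory genes were still counted there: Gad2 and Slc6a5 were at 38.7 and 42.6 CPM in core cluster 7, and 40.6 and 44.7 CPM in core cluster 14. Cluster 7, led by Chst9, Reln and Hmga2, had 498 CPM of Gfra1 in the core and 375 (296 to 469) in the distal library, with Slc17a6 at 69.7 and 102 CPM. Cluster 23, led by Cpne4, Gm49678 and Slc35f3, had 495 (395 to 612) and 485 CPM. Cluster 12 had 328 (294 to 364) CPM in 433 core nuclei, and cluster 14 had 223 (168 to 291) and 315 (271 to 365) CPM. At the other end stood clusters with more Gad1, Gad2 and Slc6a5, genes of GABA and glycine neurons: cluster 5 with 59.2 (46.7 to 74.1) and 28.2 (14.6 to 49.2) CPM of Gfra1, and cluster 16 with 68.0 (49.4 to 91.3) and 27.5 CPM. Clusters with more Slc17a6 were not all high: cluster 4 had 92.4 and 71.2 CPM, cluster 6 had 90.6 and 36.7 CPM, and cluster 11 had 99.6 and 46.5 CPM of Gfra1.

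Gfra2 had another order. Its highest cluster in both libraries was cluster 5, the inhibitory-gene cluster led by Sall3, Chrm3 and Rxfp2, at 91.2 (75.4 to 109) CPM in the core and 106 (77.1 to 141) CPM in the distal library. In cluster 7, high in Gfra1, Gfra2 had 12 UMIs, 15.5 (8.01 to 27.1) CPM, in the core and 0 in the distal library, which allows up to 14.6 CPM. Of distal neuron-like nuclei with a Gfra1 UMI, 22 of 456 also had a Gfra2 UMI, or 4.83% (3.05 to 7.21, exact binomial interval), against 9.51% of nuclei matched in UMI total without Gfra1. In the core the same shares were 8.59% (7.51 to 9.78) and 8.81%.

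**Figure D3:**
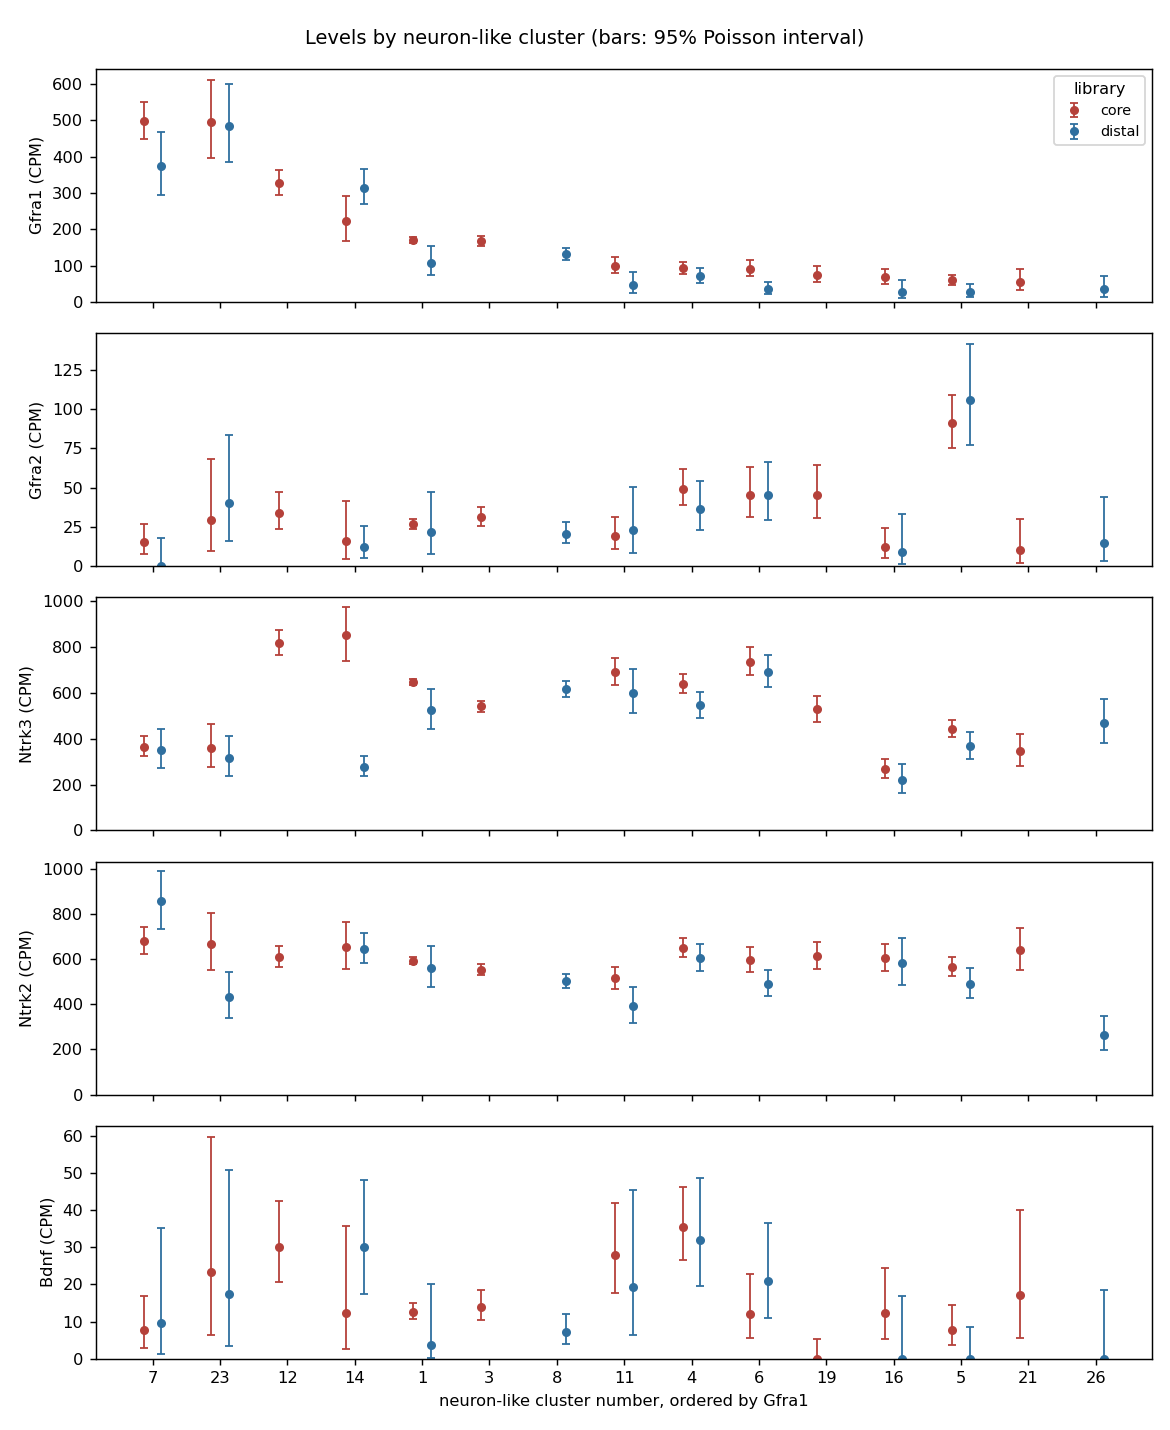
Levels of 5 member genes in neuron-like clusters with at least 50 nuclei, ordered by Gfra1, in CPM on linear axes; bars are 95% Poisson intervals, red for core and blue for distal. Gfra1 is highest in clusters 7 and 23, Gfra2 in cluster 5 (91.2 and 106 CPM) and Bdnf in cluster 4 (35.4 and 31.8 CPM).

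Bdnf was highest in cluster 4 in both libraries, at 35.4 (26.6 to 46.2) CPM in the core and 31.8 (19.7 to 48.6) CPM in the distal library. This cluster was led by Myo5b, Unc5cl and Ptger3 and had Slc17a6 at 71.4 and 75.7 CPM. Clusters with more inhibitory genes varied: cluster 19 had 0 UMIs in 286 core nuclei, which allows up to 4.39 CPM, and cluster 5 had 7.79 (3.74 to 14.3) CPM in the core and 0 UMIs in 150 distal nuclei, which allows up to 7.04 CPM. Cluster 16, also with inhibitory genes, had 12.4 (5.34 to 24.4) CPM in the core, near the median cluster at 12.7 CPM, and the Slc17a6 cluster 7 had 7.75 (2.84 to 16.9) CPM.

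Ntrk2 differed little between core neuron clusters, from 515 (467 to 567) to 681 (624 to 741) CPM. In the distal library it ranged from 265 (199 to 347) CPM in cluster 26, whose leading genes Pkd1l2 and Pkd2l1 mark neurons that contact the cerebrospinal fluid, to 857 (735 to 993) CPM in cluster 7. Ntrk3 was lowest in cluster 16, led by Gucy2d, Hmga2 and Col6a1, at 269 (230 to 312) CPM in the core and 220 (162 to 292) CPM in the distal library. It was high in cluster 6, led by Nmu, Gna14 and Rxfp1, at 737 (677 to 801) and 693 (627 to 765) CPM.

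Neurons were also grouped by their own UMIs of transmitter genes, which leaves most of them without a mark: 6128 core and 1369 distal nuclei had neither excitatory nor inhibitory UMIs. In the core 824 nuclei had excitatory UMIs alone and 2265 inhibitory UMIs alone, and in the distal library 254 and 384. Bdnf was higher in excitatory-marker than in inhibitory-marker nuclei, at 20.4 (15.02 to 27.2) against 9.37 (7.23 to 11.9) CPM in the core, a ratio of 2.18 (1.47 to 3.22). In the distal library it had 11.6 (5.56 to 21.3) against 1.96 (0.404 to 5.73) CPM, a ratio of 5.92 (1.52 to 33.5) from 10 and 3 UMIs. Nuclei with neither mark had 17.6 (15.4 to 20.1) CPM of Bdnf in the core and 18.0 (13.7 to 23.3) in the distal library. Cholinergic-marker nuclei, described below, had 40.5 (17.5 to 79.85) CPM from 8 core UMIs and 5.79 (0.147 to 32.3) from 1 distal UMI. Gfra1 gave excitatory-marker over inhibitory-marker ratios of 1.151 (1.03 to 1.29) in the core and 1.74 (1.36 to 2.22) in the distal library. Gfra2 and Ret did not differ between these groups beyond counting error, at 0.933 (0.708 to 1.22) and 0.920 (0.599 to 1.38) in the core and 0.641 (0.312 to 1.24) and 1.09 (0.463 to 2.43) in the distal library.

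Ret was highest in the few nuclei with at least 2 UMIs of the cholinergic genes Chat, Slc5a7 and Slc18a3, which motor neurons express. The 23 core nuclei of this group had 9 Ret UMIs in 5 nuclei, 45.6 (20.8 to 86.6) CPM, and the 13 distal ones had 8 in 4 nuclei, 46.3 (20 to 91.3) CPM. Against nuclei with neither excitatory nor inhibitory UMIs the ratios were 4.18 (1.87 to 8.17) and 5.14 (2.03 to 11.5). Thinned to 1000 UMIs the core ratio was 17.1 (4.49 to 46.2) and the distal one 10.1 (1.14 to 41.8). Of the 8 distal UMIs 5 lay in 1 nucleus, and without it the distal ratio was 2.60 (0.506 to 8.46). Gfra1 was also higher in core cholinergic-marker nuclei, at 466 (376 to 572) CPM, a ratio of 2.75 (2.20 to 3.38), but in the distal library, at 203 CPM, the ratio was 1.43 (0.981 to 2.01). Ntrk3 gave 1.56 (1.30 to 1.87) in the distal library, at 782 CPM, and 1.14 (0.952 to 1.34) in the core. These nuclei are large in RNA, with a median of 6246 UMIs in the core.

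Nuclei with at least 2 UMIs of Pkd2l1 or Pkd1l2, the markers of neurons that contact the cerebrospinal fluid, were low in Ntrk2 and Gfra1 in the distal library. The 66 distal nuclei had 312 (244 to 393) CPM of Ntrk2, 0.570 (0.444 to 0.722) times the level of nuclei with neither transmitter mark, and 34.6 (14.95 to 68.3) CPM of Gfra1, 0.244 (0.105 to 0.484) times. The 55 core nuclei had Ntrk2 at 0.981 (0.822 to 1.16) times and Gfra1 at 1.16 (0.846 to 1.54) times the level of such nuclei. Ntrk3 was 0.970 (0.794 to 1.18) times in the distal library and 0.738 (0.604 to 0.892) times in the core. Cluster 26, led by these markers, had oligodendrocyte markers at 0.314 times their oligodendrocyte-like level in distal nuclei and 0.054 in core nuclei. Oligodendrocyte-like nuclei had the lowest distal Ntrk2 and Gfra1 of the classes compared. The part of such RNA in these ratios was not tested. The difference between the libraries in these ratios was also not tested.

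**Figure D4:**
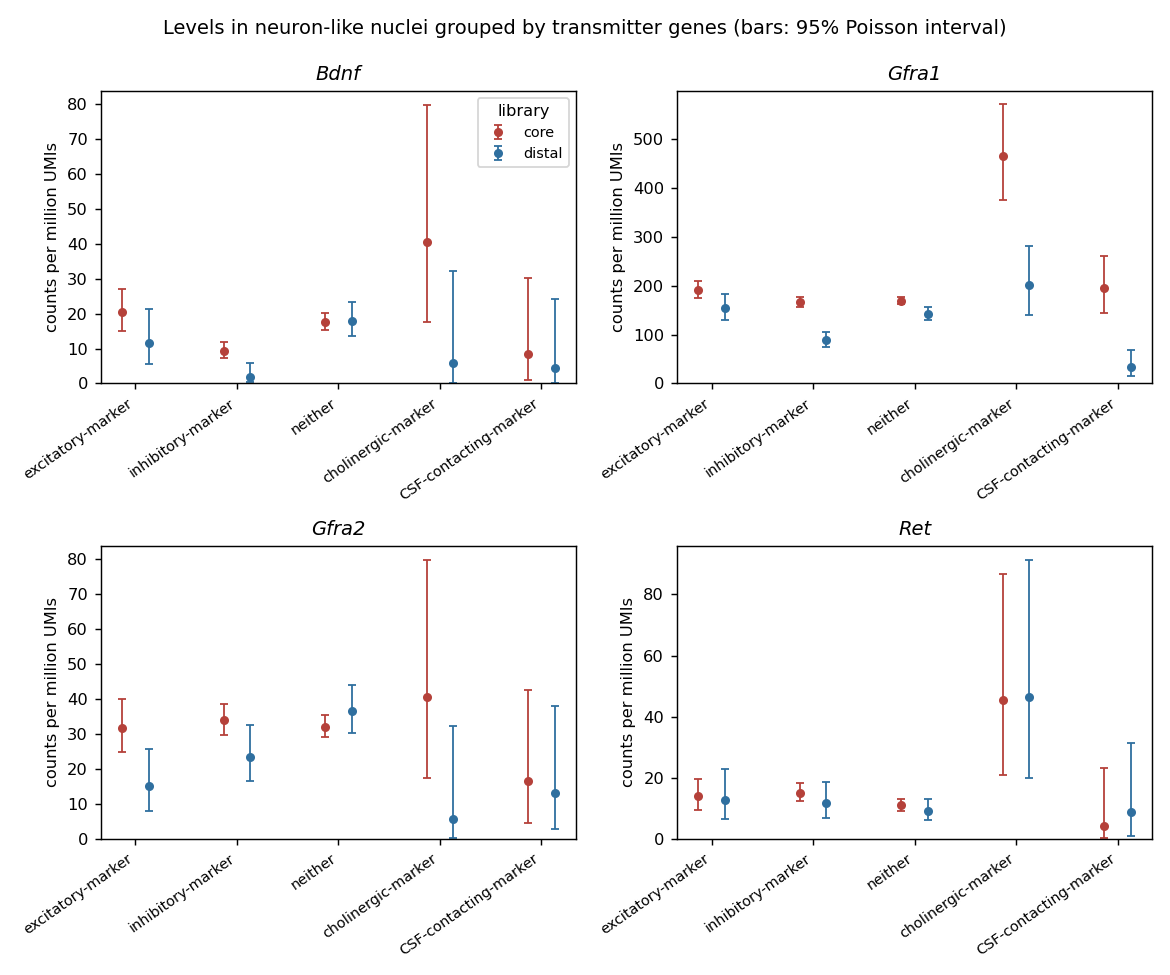
Bdnf, Gfra1, Gfra2 and Ret in neuron-like nuclei grouped by transmitter genes, in CPM on linear axes; points are group sums and bars 95% Poisson intervals. Ret is highest in cholinergic-marker nuclei in both libraries, at 45.6 and 46.3 CPM, and Bdnf is lower in inhibitory-marker than in excitatory-marker nuclei in both.

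Ret and its co-receptors were found together in some neurons. Of core neuron-like nuclei with a Ret UMI, 109 of 264 also had a Gfra1 UMI, or 41.3% (35.3 to 47.5), against 33.1% of nuclei of like UMI total without Ret. In distal nuclei this was 17 of 55, or 30.9% (19.1 to 44.8), against 27.8%. For Ntrk2 and Ntrk3 the overlap was 68.8% (67.6 to 69.9) against 68.7% in the core and 63.3% (60.7 to 65.9) against 58.7% in the distal library. No test was made on these shares, since nuclei of 1 library are not replicates.

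The study's design sets the lesion core beside the distal region, and of the named classes the neuron-like and fibroblast-like had at least 100 nuclei in both. In neuron-like nuclei the core was higher in Gfra1, Ntrk3 and Ntrk2 by modest ratios. Gfra1 had 173 (168 to 178) CPM in the core and 131 in the distal library, a ratio of 1.32 (1.22 to 1.42). Ntrk3 had 604 (594 to 614) and 518 CPM, a ratio of 1.17 (1.12 to 1.21), and Ntrk2 593 (584 to 603) and 532 CPM, a ratio of 1.12 (1.07 to 1.16). Bdnf at 1.16 (0.904 to 1.51), Ret at 1.19 (0.899 to 1.60) and Gfra2 at 1.08 (0.914 to 1.28) did not differ beyond counting error.

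Of the 6 members with at least 10 CPM, 0 passed 1.5-fold, the size used here to call a difference, while 5.08% of the 9597 genes compared were higher in the core and 10.6% lower. The median log2 ratio over those genes was -0.0031, and scaling by the trimmed mean of ratios (TMM) moved the 3 receptor ratios to 1.44 for Gfra1, 1.27 for Ntrk3 and 1.22 for Ntrk2. With the finer clustering Gfra1 passed the fold at 1.55 (1.42 to 1.69). Under the minimum level were Ntf3, with 40 and 4 UMIs and a ratio of 2.51 (0.906 to 9.65), Ngfr, with 8 and 1, and Gdnf, with 11 and 4. Core background-like barcodes had 125 CPM of Gfra1, near the distal neuron level of 131.

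Neuron clusters present in both libraries gave the same direction in most cases. Gfra1 was higher in the core in 8 of 9 clusters with a median ratio of 1.58, Ntrk3 in 9 of 9 with a median of 1.17, and Ntrk2 in 8 of 9 with a median of 1.08. The interval lay above 1 in 6 clusters for Gfra1, 4 for Ntrk3 and 3 for Ntrk2. The share of all genes with such counts of clusters was not taken. It lay below 1 for Ntrk2 in cluster 7, at 0.794 (0.668 to 0.947), and for Gfra1 in cluster 14, at 0.709 (0.514 to 0.964). The Gfra1 ratio was 1.02 (0.746 to 1.40) in cluster 23, the highest distal cluster, and 2.47 (1.05 to 7.096) in cluster 16, the lowest distal one. Both libraries mix neurons in different shares, and core background-like barcodes at 125 CPM stood above the low clusters of either library. Oligodendrocyte markers were at 0.064 to 0.18 times their oligodendrocyte-like level in the distal nuclei of these clusters. In their core nuclei the highest share of astrocyte, oligodendrocyte, OPC or myeloid markers was 0.0343. The part of such RNA in the ratios was not tested. The clusters come from 1 library per region and are not replicates. The median log2 ratio over the genes compared lay between -0.0474 and 0.0126 in them.

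The largest single ratio was that of Ntrk3 in cluster 14, at 853 (742 to 977) CPM in the core and 278 (237 to 325) CPM in the distal library, or 3.07 (2.48 to 3.79). At the finer resolution the cluster's nuclei fell into different groups by library. A finer cluster with 270 distal and 3 core nuclei had 196 (158 to 240) CPM of Ntrk3 in the distal library. Another with 137 core and 39 distal nuclei had 868 (755 to 995) CPM in the core and 724 (554 to 930) CPM in the distal library, which overlap. These finer groups were looked at after the ratio had been seen.

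**Figure D5:**
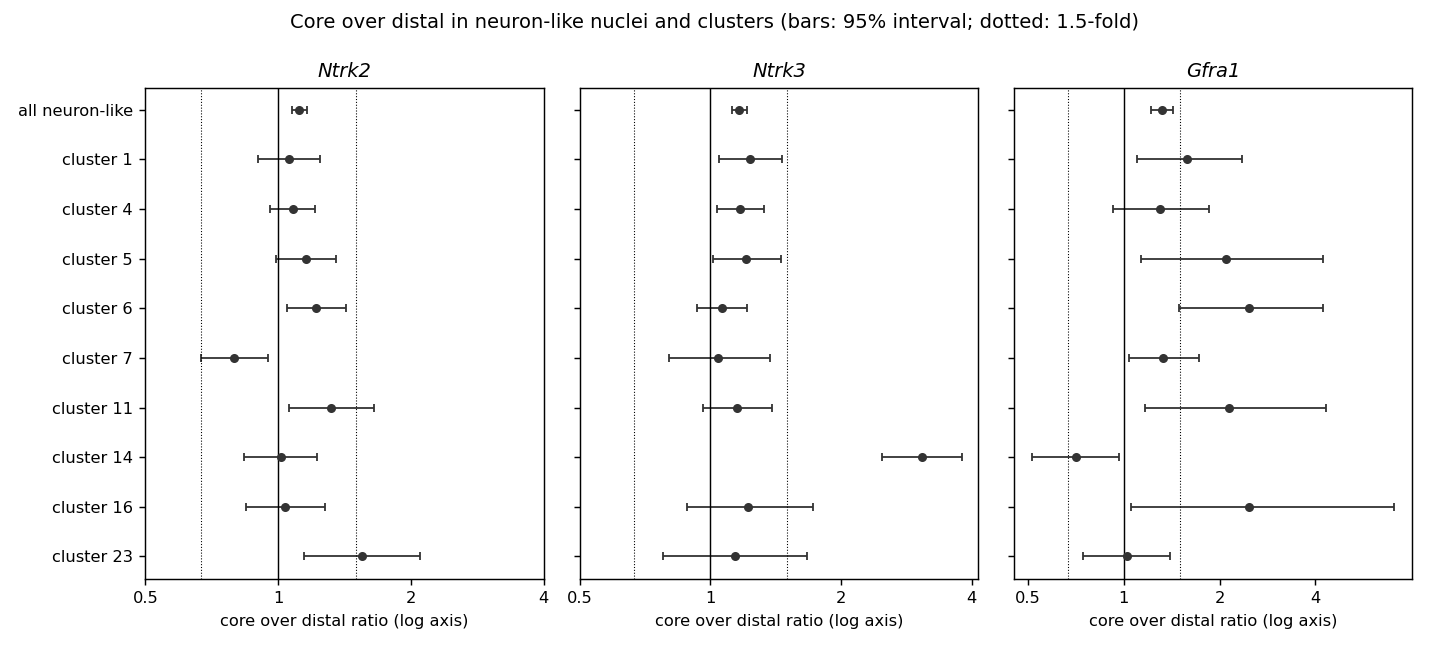
Core over distal ratio of Ntrk2, Ntrk3 and Gfra1 (log axis) in all neuron-like nuclei and in the 9 clusters with at least 50 nuclei in both libraries; bars are exact 95% intervals and dotted lines mark 1.5-fold. For all neuron-like nuclei the ratios are 1.12, 1.17 and 1.32, and Ntrk3 in cluster 14 stands apart at 3.07.

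Fibroblast-like nuclei gave larger ratios from few UMIs. Gfra1 had 20 UMIs in 112 core nuclei and 18 in 436 distal ones, 143 (87.1 to 220) against 33.2 CPM, a ratio of 4.29 (2.16 to 8.60). It was 8.77 (3.40 to 26.7) without called doublets and 7.64 (3.32 to 19.1) without the highest doublet scores. Called doublets were all distal, so the value of 8.77 sets an unfiltered core against a filtered distal class. With classes given nucleus by nucleus the ratio was 2.34 (1.65 to 3.28). Ntrk2 had 46 and 84 UMIs, a ratio of 2.12 (1.44 to 3.07), Ret 4 and 5 UMIs, 3.09 (0.613 to 14.4), and Bdnf 1 and 6 UMIs, 0.644 (0.0140 to 5.30). With these 4 of 6 members passed 1.5-fold, 3 higher and 1 lower, where 24.6% of 11240 genes were higher and 34.9% lower. Ntrk3 gave 1.49 (1.13 to 1.94) and was just inside the fold. Neuron markers were at 71.2% of the neuron level in core and 29.4% in distal fibroblast-like nuclei, and their part in these ratios was not tested.

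Beyond the 9 genes, a list of 86 genes of the same pathways was read in neuron-like nuclei: ligands, receptors, p75 partners, adaptors and kinases, proteins that process or release BDNF, and response genes. Of these, 56 had at least 10 CPM, of which 7 were higher in the core past 1.5-fold, 2 were lower and 47 were neither, where 5.08% of all genes compared were higher and 10.6% lower. The median log2 ratio was 0.09 on the list and -0.0031 over all genes. With classes given nucleus by nucleus 3 were higher and 4 lower. With TMM scaling 0 were lower, and without neuron cluster 1, which holds 4375 of the core neurons and lies nearest to the background-like barcodes, 4 were higher and 1 lower.

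Among receptors and partners, Sorcs2, a receptor of the sortilin family that binds proneurotrophins with p75, was at 72.8 and 44.7 CPM in core and distal neurons, a ratio of 1.63 (1.43 to 1.87). Lingo1, which forms a complex with p75 and the Nogo receptor, was at 124 and 77.3 CPM, 1.60 (1.45 to 1.77). The most abundant gene of the receptor list, Sorcs1, gave 1.06 (1.03 to 1.10), and Kidins220, a Trk scaffold protein, 0.998 (0.939 to 1.06). Ncam1, an alternative GDNF receptor, gave 0.899 (0.872 to 0.926). Of the neurotrophin and GDNF receptor lists 10 of 11 genes with at least 10 CPM were neither higher nor lower. Over all genes compared 5.08% were higher and 10.6% lower.

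Of 29 adaptor and kinase genes with enough counts, 2 were higher, 1 lower and 26 neither. Over all genes compared 5.08% were higher and 10.6% lower, and these shares apply to each list in this paragraph. Shc4, a Shc adaptor, gave 1.62 (1.19 to 2.27) and Plcg1, the phospholipase that Trk receptors recruit, 1.54 (1.37 to 1.74). Pik3r1, the regulatory subunit of PI3 kinase, gave 0.666 (0.595 to 0.746). Dok6, an abundant adaptor gene of this list, gave 0.930 (0.893 to 0.970). Of 6 genes that process or release BDNF with enough counts, the proprotein convertase gene Pcsk5 was lower at 0.637 (0.595 to 0.682), and 5 were neither, among them Cpe, carboxypeptidase E, at 1.31 (1.23 to 1.39).

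Of the 12 response genes 4 had enough counts and 3 of these were higher in core neurons, where 5.08% of all genes compared were higher. With classes given nucleus by nucleus the whole list of 86 held 3 higher genes. Etv4, a transcription factor gene induced by GDNF in motor neurons, was at 28.4 and 12.02 CPM, 2.36 (1.84 to 3.06). Vgf, a neurotrophin-induced secreted peptide gene, was at 14.9 and 7.04 CPM, 2.12 (1.53 to 3.00), and Etv5 at 34.7 and 22.2 CPM, 1.56 (1.30 to 1.90). Creb1 gave 0.742 (0.664 to 0.829), and Arc, Egr1, Fos, Npy, Dusp6 and 3 Sprouty genes stayed under 10 CPM. Of the genes under 10 CPM, Spry1 (0.470), Arc (0.627), Spry2 (0.698), Egr1 (0.785), Npy (0.852) and Dusp6 (0.863) had ratios below 1. Fos (1.25) and Spry4 (1.95) had ratios above 1. Each interval included 1 except that of Spry4, 1.09 to 3.78. For these genes too, region and cord level cannot be told apart.

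In distal OPC-like nuclei Etv4, Etv5 and Shc4 were higher than in neurons. They were picked from the 86 genes after their values were seen, and the rest of the list was not counted there. No share of all genes was taken for OPC-like over neuron-like nuclei. Ret had 1 UMI in these nuclei, and a link of these levels to Gfra1 was not tested. Etv4 had 86.4 (66.7 to 110) CPM there, from 65 UMIs, against 12.02 (9.37 to 15.2) in neurons and 3.63 (1.93 to 6.20) in oligodendrocyte-like nuclei. Etv5 had 101 (79.6 to 126) CPM against 22.2 (18.5 to 26.3) in neurons, and Shc4 124 (99.8 to 151) against 7.90 (5.79 to 10.5).

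Across the 12 combinations of class and library with at least 50 nuclei, the genes most like each member were named by Pearson's r of log2(CPM + 1) among 13945 genes, as a description with no p. The 12 points share libraries and depth. Dlgap1 (0.985), Ephb2 (0.965) and Shank2 (0.964) came nearest to Ntrk2, and Myo16 (0.968), Ppp2r2b (0.951) and Pitpnm2 (0.931) to Ntrk3. Nearest to Gfra1 were Mgat5b (0.963), Susd4 (0.942) and Grid1 (0.940). Ntrk2 and Ntrk3 gave 0.859 with each other. The closest to Gfra2 was Kcnd3 (0.853), to Bdnf Tmem231 (0.935) and to Ret Esyt1 (0.966), where the values of Ret and Bdnf outside neurons rest on few UMIs.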

How the data were processed

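Nuclear RNA from frozen spinal cord was counted in 2 libraries. The values are raw counts of UMIs by gene for each barcode, as deposited, made with Cell Ranger 7.1.0 per the file headers. The submitters' processing notes also name Seurat and the builds GRCh38 and mm10, with no role given; filters and strand use are not given in the sources used here. Kept were 16360 core and 7443 distal barcodes that had 300 genes or more and no more than 5% of UMIs from mitochondrial genes. They were clustered with scanpy 1.11.5 and leidenalg 0.10.2 on 2000 variable genes, from which the 9 members were left out, with 40 principal components, 15 neighbours and resolution 1.0, giving 30 clusters. Clusters were named from marker lists. The naming rules and the split of the haemoglobin-led cluster were set after the data were seen, and the members and lists were chosen with earlier results of these data known. Doublets were left in: Scrublet called 0 in the core and 1383 (18.6%) in the distal library. Its core threshold, 0.608, lay above the highest core score, 0.556, and its distal threshold was 0.104.

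UMIs were summed per class and divided by the class total (CPM). Intervals are 95%: exact Poisson for levels, Clopper-Pearson for shares, exact conditional binomial for ratios. A count of 0 allows 3 counts. PCR duplicates are merged by molecular identifiers, and intervals cover counting error only. Regions were compared in classes with at least 100 nuclei in both, over genes with at least 10 CPM in either library, and called past 1.5-fold. The self-test of the ratio code ran on simulated data. Named genes were the members, pathway genes past the fold, the most abundant pair of each list, and the 3 genes most like each member; other genes named (Etv4, Etv5 and Shc4 in distal classes, and cluster leading genes) were chosen after their values were seen. Of 32285 features, 32158 were matched in GENCODE M21. Alternatives changed the gene minimum, doublets, resolution, class rule, depth, scaling and CPM minimum. Some genes that this rule names are not reported here.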

Additional observations from a re-analysis of the deposited data

Results flagged for a closer look

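A cluster led by genes that include Hbb-bs, Hba-a1, Nefl and Nefh stayed outside every class comparison, and several members had UMIs there. A count of 0 allows 3 counts of the barcodes' total, 7.1 CPM in the 435 distal and 37.6 CPM in the 63 core barcodes. Any gene with more UMIs than that passes this limit, so passing it sets no member apart. Distal levels past it were 348 CPM for Ntrk2, 409 for Ntrk3, 149 (115 to 191) for Gfra1, 49.7 (30.8 to 76.0) for Ret from 21 UMIs in 14 barcodes, 21.3 for Gfra2, and 11.8 (3.84 to 27.6) for Ngfr and for Bdnf from 5 UMIs each. Of the 173 Ntrk3 UMIs 48 lay in 1 barcode. Core levels past it were 489 CPM for Ntrk2, 213 for Ntrk3 and 552 (401 to 741) for Gfra1, from 44 UMIs in 15 barcodes. The 5 distal UMIs of Ngfr are among 10 in that library.

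The cluster was divided by its own genes, after these values were seen. The neurofilament list was Nefl, Nefm, Nefh, Prph and Sncg, and 32 distal barcodes had at least 3 UMIs of it. They held 13 Ret UMIs in 8 barcodes, 279 (148 to 477) CPM, and 4 Ngfr UMIs, 85.7 (23.4 to 220) CPM. The 30 distal barcodes with at least 3 UMIs of Schwann cell genes held 35 Gfra1 UMIs in 16 barcodes, 542 (378 to 754) CPM. In the core 36 of the 44 Gfra1 UMIs were in 8 of 11 Schwann-marker barcodes, 1520 (1064 to 2104) CPM, and the other 52 barcodes had 143 (61.6 to 281) CPM. Neuron markers stood at 49.6% of the neuron level in the distal and 73.4% in the core part of the cluster, and their part in these values was not tested.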

How the results depend on the processing

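No paired analysis was possible because each region has 1 library. No ratio whose interval lay clear of 1 as reported fell on the other side of 1 in an alternative run. Other ratios and all levels were outside this check. Of the class levels and shares, 646 values stayed within their reported interval and 110 moved out of it. With classes given nucleus by nucleus 35 of 84 moved, and with thinning to 1000 UMIs 40 of 84. A minimum of 500 genes and leaving out the 38 shared barcodes (chosen after seeing the data) moved 0 of 26 comparisons, and leaving out the highest doublet scores 0 of 26.

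Resolution 0.5 gave 5.55 for Gfra1 in OPC-like over oligodendrocyte-like nuclei, 1.64 for Ntrk2 in neurons over OPC-like nuclei, and 1 pathway gene lower in core neurons (2 as reported). Resolution 2.0 gave 2.12 for Gfra1 OPC-like over neurons, 1.12 for Ntrk2 neurons over OPC-like, 1.12 for Ntrk3 and 1.55 for Gfra1 core over distal, and 1 member past the fold. Classes given nucleus by nucleus gave, for OPC-like over oligodendrocyte-like nuclei, Gfra1 3.55, Ntrk2 2.45 and Ntrk3 3.44. They gave Gfra1 OPC-like over neurons 1.91, Ntrk2 astrocyte-like 2.22 and Ntrk3 fibroblast-like 2.62 over oligodendrocyte-like nuclei, core over distal ratios of 1.16 for Ntrk2 and 1.497 for Gfra1, and 3 pathway genes higher and 4 lower. Thinning gave 3.71 for Ntrk2 astrocyte-like over oligodendrocyte-like nuclei and 17.1 for Ret in core cholinergic-marker nuclei. Bdnf gave no thinned distal ratio, as no inhibitory-marker UMI was left. Leaving out the nucleus with most UMIs left 1 pathway gene lower. TMM scaling gave 1.22, 1.27 and 1.44 for Ntrk2, Ntrk3 and Gfra1, with 0 pathway genes lower. Without the CPM minimum 11 were higher and 7 lower. Removing called doublets (chosen after seeing the data) gave 1.87 for Gfra1 OPC-like over neurons, 7.05 for Ntrk2 OPC-like over oligodendrocyte-like nuclei, 8.77 for Gfra1 core over distal in fibroblast-like nuclei, and 1 gene lower. All called doublets were distal, so that removal left the core library unfiltered. Without neuron cluster 1 (also chosen after) Ntrk3 gave 1.09, with 4 genes higher and 1 lower. The cause of these changes was not tested. Depth limits Ngfr, Ntf3 and Gdnf, whose class values rest on few UMIs.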

Other observations

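Cluster 8 held 47 core and 477 distal nuclei. Its core nuclei had 822 (694 to 968) CPM of Gfra1 and 96.4 CPM of Chat, the choline acetyltransferase gene of motor neurons, with 9 Ret UMIs in 5 nuclei, 51.0 CPM. Its distal nuclei had 131 CPM of Gfra1, 17.05 CPM of Chat and 11.9 CPM of Ret. With under 50 core nuclei the cluster entered no comparison between regions.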
